A study of Mus musculus with 12 samples.

Results

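The 9 genes described here encode enzymes of folate and one-carbon metabolism: Shmt1, Shmt2, Mthfd1, Mthfd2, Mthfd1l, Tyms, Mtr, Gart and Atic. They were taken by symbol from the 56941 gene IDs of a count table for RAW264.7 cells, which are a macrophage line from mouse, and each of the 9 symbols matched 1 ID. Control cells (n = 6) lay on a porous insert under an agarose cushion alone for 24 h, and compressed cells (n = 6) lay for 24 h under the same cushion with a weight that applied 0.14 kPa. Both groups were the same cell line, in DMEM with fetal bovine serum and antibiotics, and both carried the cushion, which was made up in that medium. Whether the 6 samples of each group were grown as separate cultures is not stated, and p-values therefore refer to the spread among these samples, which may be technical.

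Folate carries single carbon units between molecules. Serine hydroxymethyltransferases take a carbon from serine, dehydrogenases change its oxidation state, and synthetases join formate to folate or release it. The carbon ends in the purine ring, in the methyl group of thymidylate or in methionine. The chain exists in a cytosolic and a mitochondrial form, and the mitochondrial one largely runs from serine to formate, which leaves the organelle and feeds the cytosolic enzymes. Activity of the pathway is high in dividing cells, which need purines and thymidylate to copy DNA.

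Total counts ranged from 37948795 to 40463545 in the control libraries and from 33460807 to 39103987 in the compressed libraries. Each member held between 15828 (Shmt1) and 193505 (Shmt2) counts over the 12 libraries, so counting error was small for all 9. Macrophage markers were present: the 10 markers together held 6424 to 6875 CPM, the count scaled to library size, in controls and 7918 to 9787 CPM under compression. They did not move alike: 5 were higher and 3 lower under compression at an edgeR adjusted p of at most 0.05. Mertk was near the floor, at a mean of 0.31 CPM in controls and 0.93 CPM under compression. Of 13 markers of other cell types, 5, Cd3e and Olig2 among them, had no count in any library, and the whole list summed to 0.653 to 1.14 CPM in controls and 0.888 to 1.30 CPM under compression. Compressed replicate 6 stood apart from the other compressed libraries. Its mean chi-square per gene against them was 169.9 to 225, compared with 3.55 to 17.01 between the other compressed libraries. Relative to the mean of those libraries its log2 CPM was at a median of -0.44 for the 5055 tested genes with at least 5000 bases of exon and of 0.23 for the 9592 shorter genes.

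Under compression, transcripts of 8 of the 9 folate enzymes fell and those of 1, Mthfd1l, rose. A gene was called where edgeR's quasi-likelihood test gave an adjusted p (Benjamini-Hochberg, over all 15001 tested genes) of at most 0.05. Of these genes 21.89% were called lower and 24.51% higher, 46.40% in all. Without compressed replicate 6 these shares were 32.18% lower and 33.85% higher, 66.03% of 15117 genes in all, and the same 8 members were called lower and Mthfd1l higher. In 8 of the 9 members all compressed libraries lay below all controls, which held for 17.05% of all genes tested. All compressed libraries lay on the same side of all controls, in either direction, for 33.56% of genes. The median log2 fold change of the members, compressed over control, was -0.75, and that of all tested genes was 0.02. These are shares of the RNA in a culture, in which fewer cells of a kind and less of a transcript per cell cannot be told apart.

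The cytosolic enzymes fell as a group, with all 6 called lower and a median log2 fold change of -0.90. Shmt1, the cytosolic serine hydroxymethyltransferase, fell most. It lay between 47.9 and 51.0 CPM in controls (median 50.3) and between 16.8 and 19.9 CPM under compression (median 18.4). All compressed libraries, replicate 6 included at 18.9 CPM, were below all controls by a wide margin. The log2 fold change was -1.45 (SE 0.047, edgeR adjusted p = 1.74e-10), and 0.113% of tested genes had a lower one. Exons of Smcr8 overlap those of Shmt1 on the opposite strand, and the strand setting of the counting is not given. Smcr8 had a log2 fold change of -0.30 (SE 0.18, edgeR adjusted p = 0.184), with means of 137.8 ± 6.07 CPM in controls and 112 ± 31.3 CPM in compressed cells (SD, n = 6 each).

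Tyms encodes thymidylate synthase, which uses a folate-bound carbon to make thymidylate for DNA. Its level ran from 44.4 to 47.8 CPM in controls (median 46.4) and from 20.5 to 27.7 CPM under compression (median 22.2). The highest compressed value was that of replicate 6, and it remained well below the lowest control. Tyms had a log2 fold change of -1.02 (SE 0.067, edgeR adjusted p = 4.04e-08), and of -1.08 without compressed replicate 6. A processed pseudogene of the gene, Tyms-ps, held 72 counts in all, compared with 15840 for Tyms.

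Gart and Atic encode the enzymes that add folate-borne carbons to the growing purine ring. Gart, which carries out 3 steps of the route including a formyl transfer, lay between 210.1 and 226 CPM in controls (median 219) and between 96.9 and 111 CPM under compression (median 107). Atic, which carries out the last formyl transfer and closes the ring, lay between 185 and 198 CPM in controls (median 193) and between 114 and 127 CPM under compression (median 117). Neither gene had a compressed library near the control range. The log2 fold change was -1.05 for Gart (SE 0.043, edgeR adjusted p = 7.32e-10) and -0.70 for Atic (SE 0.042, edgeR adjusted p = 1.51e-08).

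Mthfd1 encodes the cytosolic enzyme that joins formate to folate and interconverts the one-carbon forms. It ran from 151 to 159 CPM in controls (median 153) and from 71.1 to 96.8 CPM under compression (median 92.1). The lowest value belonged to replicate 6, and the other 5 compressed libraries began at 88.7 CPM. Mthfd1 had a log2 fold change of -0.78 (SE 0.067, edgeR adjusted p = 5.40e-07), and -0.72 without compressed replicate 6.

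Mtr encodes methionine synthase, which moves a methyl group from folate to homocysteine. It lay between 80.7 and 90.6 CPM in controls (median 84.1) and between 29.3 and 65.4 CPM under compression (median 59.9). Replicate 6 was at 29.3 CPM, with the other 5 at 55.8 to 65.4 CPM, so that without it the groups were still apart. Mtr had a log2 fold change of -0.61 (SE 0.15, edgeR adjusted p = 0.00375). Without compressed replicate 6 it was -0.49 with an edgeR adjusted p of 1.03e-09, and with the trend of each library with transcript length removed it was -0.60 with an edgeR adjusted p of 3.54e-05.

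**Figure D1:**
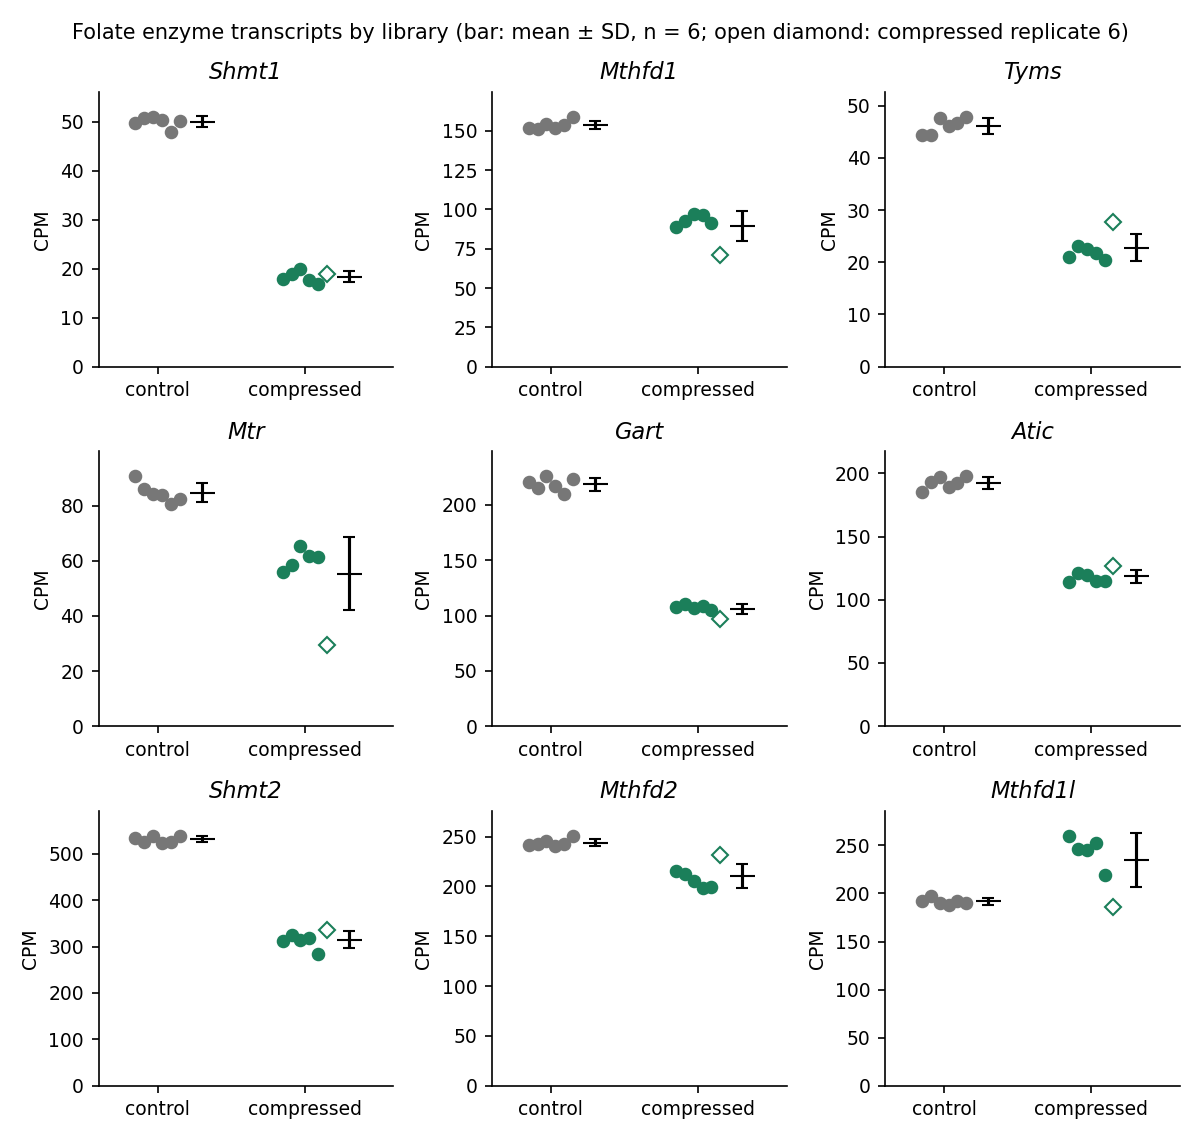
CPM (counts scaled to library size, vertical axes from 0) of the 9 folate enzyme transcripts in each of 6 control (gray) and 6 compressed (green) libraries, with the mean and SD of each group as a bar and compressed replicate 6 as an open diamond. Compressed libraries lie below all controls in 8 genes; in Mthfd1l 5 of 6 lie above them, and replicate 6 is at 185 CPM, below the lowest control at 188 CPM.

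The 3 mitochondrial enzymes did not move alike. Shmt2, which takes the carbon from serine inside the mitochondrion, lay between 524 and 539 CPM in controls (median 531) and between 284 and 336 CPM under compression (median 317). The ranges of the groups were far apart, and replicate 6 was the highest of the compressed libraries. Shmt2 had a log2 fold change of -0.75 (SE 0.045, edgeR adjusted p = 1.58e-08).

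Mthfd2, the mitochondrial dehydrogenase and cyclohydrolase, fell by a smaller amount. It lay between 241 and 251 CPM in controls (median 243) and between 198 and 232 CPM under compression (median 209). The groups did not overlap, although the highest compressed library, replicate 6, came close to the lowest control. The log2 fold change of Mthfd2 was -0.21 (SE 0.045, edgeR adjusted p = 0.00152), and -0.24 without compressed replicate 6.

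Mthfd1l, the mitochondrial formyltetrahydrofolate synthetase that releases formate, was the member that rose. It ran from 188 to 198 CPM in controls (median 191) and from 185 to 260 CPM under compression (median 246). Of the compressed libraries, 5 lay between 219.7 and 260 CPM, above all controls, and replicate 6 lay at 185 CPM, below all of them. Mthfd1l had a log2 fold change of 0.29 (SE 0.072, edgeR adjusted p = 0.00427) with all 12 libraries. Without compressed replicate 6 it was 0.35 with an edgeR adjusted p of 3.43e-08.

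The order of the members by level, per kilobase of exon, put the 3 mitochondrial enzymes first in both groups. In controls Shmt2 stood at 171 ± 2.17 CPM per kilobase (SD, n = 6), followed by Mthfd2 at 70.0 ± 1.03 and Mthfd1l at 43.2 ± 0.758 CPM per kilobase. Then came Gart at 42.5 ± 1.12, Mthfd1 at 34.6 ± 0.634 and Atic at 24.1 ± 0.602 CPM per kilobase. Shmt1 at 12.9 ± 0.287, Mtr at 9.93 ± 0.401 and Tyms at 7.58 ± 0.250 CPM per kilobase were the lowest. Among neighbors in this order, the libraries of Mthfd1l and Gart overlapped, and those of the other neighbors did not. Under compression the means kept this order except that Mtr, at 6.50 ± 1.55 CPM per kilobase, stood above Shmt1, at 4.73 ± 0.289 CPM per kilobase. Neighbors whose libraries overlapped were then Mthfd2 and Mthfd1l, Gart and Mthfd1, Mtr and Shmt1, and Shmt1 and Tyms. Mthfd1l and Gart, which overlapped in controls, stood at 52.9 ± 6.24 and 20.6 ± 0.924 CPM per kilobase under compression. These levels use exon lengths of an annotation other than the one the counts were made with.

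**Figure D2:**
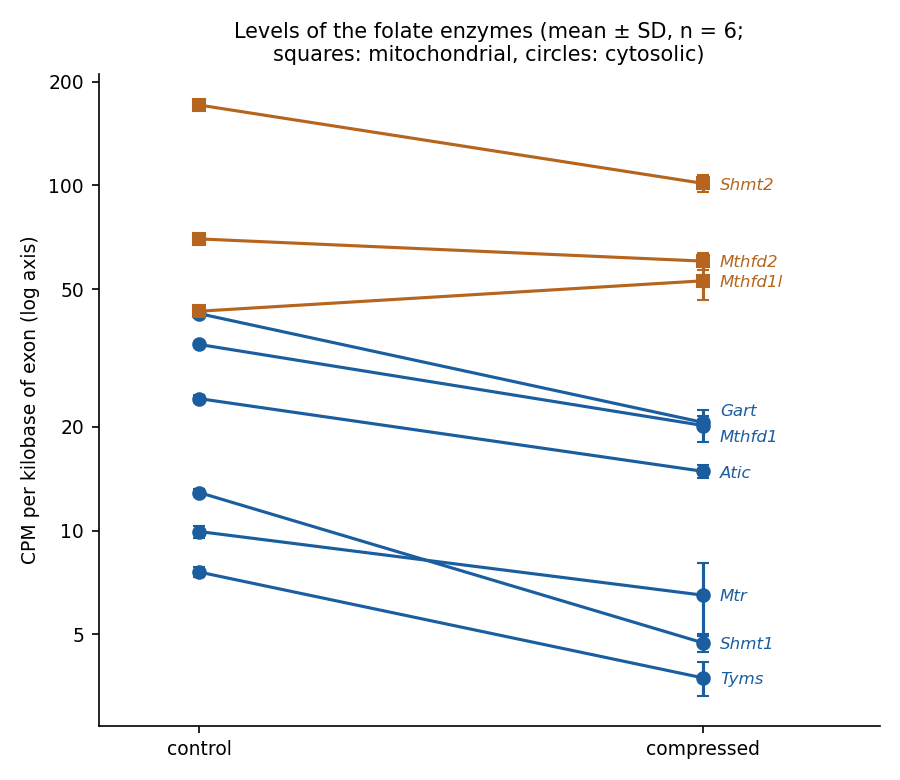
Mean level of each folate enzyme transcript in CPM per kilobase of exon (log axis) in control and compressed libraries, with SD over 6 libraries as error bars; squares are mitochondrial enzymes and circles cytosolic ones. The lines of the cytosolic genes all slope down, that of Shmt1 most steeply, from 12.9 to 4.73, and that of Mthfd1l slopes up, from 43.2 to 52.9.

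The ratio of a mitochondrial to a cytosolic enzyme within a library does not depend on how libraries are scaled. For the serine hydroxymethyltransferases, Shmt2 over Shmt1 had a mean log2 ratio per kilobase of 3.73 ± 0.032 (SD, n = 6) in controls and 4.42 ± 0.068 (SD, n = 6) under compression. Both transcripts fell, and the fall of Shmt1 was the larger, so the ratio went from 13.3 to 21.5. For the synthetases, Mthfd1l over Mthfd1 had a mean log2 ratio of 0.32 ± 0.041 (SD, n = 6) in controls and 1.39 ± 0.095 (SD, n = 6) under compression, a change from 1.25 to 2.62. Mthfd2 over Mthfd1, which share the dehydrogenase and cyclohydrolase steps, had a mean log2 ratio of 1.02 ± 0.0086 (SD, n = 6) in controls and 1.59 ± 0.24 (SD, n = 6) under compression. The highest value of the last ratio was that of compressed replicate 6, at 2.05, and the lowest compressed library lay at 1.39, above the highest control at 1.03. In each of the 3 ratios no compressed library lay within the range of the controls. The ratios over Mthfd1 share that denominator and are not independent of each other. The differences, compressed minus control, were 0.69, 1.07 and 0.57 in the order given, and the last was 0.48 without compressed replicate 6. Each had p = 0.0022 in a two-sided exact permutation test over libraries (adjusted p = 0.0022 over the 3 ratios), the smallest that splits of 6 against 6 can give.

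**Figure D3:**
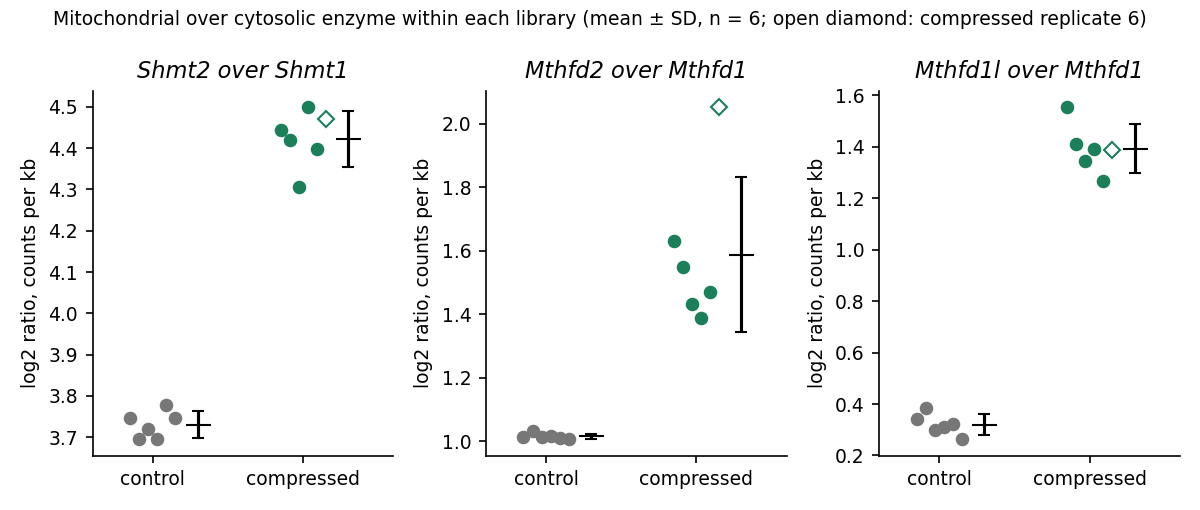
Log2 ratio of a mitochondrial over a cytosolic enzyme transcript, in counts per kilobase, in each of 6 control (gray) and 6 compressed (green) libraries, with mean and SD as a bar and compressed replicate 6 as an open diamond; the vertical axes do not start at 0. All compressed libraries lie above all controls in the 3 ratios, with means of 4.42 against 3.73, 1.59 against 1.02 and 1.39 against 0.32.

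Promoters of the members were read to show what sequence lies at the start of genes that fell and of the one that rose. A window from 250 bases before to 50 bases after the start was found for all 9 in RefSeq's annotation of GRCm38.p6, an older build than that of the counts. The 150 bases before the start, on the strand of the gene, are shown for the member with the largest fall (Shmt1), for the one that rose (Mthfd1l) and for the 2 whose window held an E-box (Tyms and Atic). Capitals mark the E-box CACGTG, a motif bound by MYC and related factors, and the rest is in lower case.
Shmt1, chr11:60811266-60811415, minus strand: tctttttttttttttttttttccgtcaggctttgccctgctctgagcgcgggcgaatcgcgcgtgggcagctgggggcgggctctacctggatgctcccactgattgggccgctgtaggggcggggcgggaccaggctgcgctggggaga
Mthfd1l, chr10:3972925-3973074, plus strand: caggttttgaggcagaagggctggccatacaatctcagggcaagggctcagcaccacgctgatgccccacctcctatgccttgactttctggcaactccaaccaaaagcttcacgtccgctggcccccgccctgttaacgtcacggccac
Tyms, chr5:30073626-30073775, minus strand: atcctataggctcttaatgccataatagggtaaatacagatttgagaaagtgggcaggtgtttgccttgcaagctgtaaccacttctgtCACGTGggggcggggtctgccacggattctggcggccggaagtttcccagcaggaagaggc
Atic, chr1:71557006-71557155, plus strand: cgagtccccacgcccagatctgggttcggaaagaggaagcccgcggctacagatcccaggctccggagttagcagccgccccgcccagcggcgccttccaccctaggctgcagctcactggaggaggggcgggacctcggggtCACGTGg

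The E-box was found in the windows of Tyms and Atic, both of which fell, and in 7.15% of all 32851 windows of this length. The stretches shown held 62.7% G and C for Shmt1, 59.3% for Mthfd1l, 52.7% for Tyms and 70.0% for Atic. The other motifs searched, on both strands, were the E2F site (TTTCCCGC, TTTCGCGC, TTTGCCGC or TTTGGCGC) and the site of ATF4 with C/EBP factors (TGATGNAA). No member window held either of them, and 2.26% and 3.97% of all windows did. The absence of these letters from a window says nothing about whether the factor acts on the gene.

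The transcripts of factors known to act on genes of this pathway went in different directions. Myc, which encodes a transcription factor of growth and nucleotide synthesis genes, lay between 23.2 and 26.3 CPM in controls (median 24.8) and between 50.5 and 66.5 CPM under compression (median 56.9). All compressed libraries were above all controls, and the log2 fold change was 1.21 (SE 0.063, edgeR adjusted p = 4.97e-09). E2f1, an activator of S phase genes, fell by 0.46 on the log2 scale (edgeR adjusted p = 3.03e-06). Atf4, the amino acid response factor that drives serine and mitochondrial folate genes, lay between 318 and 331 CPM in controls and between 296 and 404 CPM under compression. The compressed libraries were below the controls except for replicate 6, which was at 404 CPM. Atf4 was at -0.03 with all libraries (edgeR adjusted p = 0.798) and was called lower, at -0.10, without compressed replicate 6 (edgeR adjusted p = 0.00168).

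Genes that bring folate into the cell, reduce it and hold it there mostly moved with the cytosolic enzymes. Of 8 such genes 7 were tested, of which 4 fell and 2 rose, with a median log2 fold change of -0.36. For comparison, here and for the lists below, 21.89% of all tested genes were called lower and 24.51% higher. Fpgs, which adds the glutamate tail that keeps folate in the cell, fell by 0.58 on the log2 scale (edgeR adjusted p = 3.87e-07). Higher under compression were Ggh, which removes that tail, at 0.43 (edgeR adjusted p = 0.00735), and the folate receptor gene Folr1, at 0.93 (edgeR adjusted p = 0.0184) but with a mean under 1 CPM in both groups. Exons of Eng overlap those of Fpgs on the opposite strand.

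The remaining folate-interconverting enzymes leaned the other way. Of 10 listed, 7 were tested, of which 4 rose and 1 fell, with a median log2 fold change of 0.42. Aldh1l2, the mitochondrial formyltetrahydrofolate dehydrogenase, rose from 86.4 ± 7.15 CPM (SD, n = 6) to 144 ± 41.0 CPM (SD, n = 6), a log2 fold change of 0.74 (edgeR adjusted p = 0.00558) with overlap between the groups, or 0.89 without compressed replicate 6. Its exons overlap those of D10Wsu102e on the opposite strand. Mthfs and Aldh1l1, at log2 fold changes of 0.66 and 0.61 (edgeR adjusted p = 0.0179 and 2.01e-04), were at 2.5 CPM or less on average in both groups, and Mthfs was at 0.42 without compressed replicate 6. Mtrr, which reactivates methionine synthase, fell by 0.30 on the log2 scale (edgeR adjusted p = 0.0293). That call was lost without control replicate 1 (-0.29, edgeR adjusted p = 0.0585) and without control replicate 3 (-0.30, edgeR adjusted p = 0.0501).

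On the supply side, 3 of 7 genes of serine synthesis and glycine cleavage fell and 1 rose, with a median log2 fold change of -0.21. Of all tested genes 46.40% were called in either direction. Without compressed replicate 6 this list held 4 lower calls. Phgdh, the first enzyme of serine synthesis, fell from 325 ± 11.3 CPM (SD, n = 6) to 231 ± 19.6 CPM (SD, n = 6), a log2 fold change of -0.49 (edgeR adjusted p = 8.76e-06), and Psat1, the second, fell by 0.28 on the log2 scale (edgeR adjusted p = 1.27e-04). Psph, the third enzyme of serine synthesis, was at -0.21 (edgeR adjusted p = 0.110) and was not called. Gcsh, a subunit of the glycine cleavage system, fell by 0.52 on the log2 scale (edgeR adjusted p = 2.50e-04). Gldc, another subunit, had a log2 fold change of 0.31 (edgeR adjusted p = 0.0194), a call that was lost in DESeq2 (adjusted p = 0.0522), with library size alone, with no low-count filter and with replicate number as a block.

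The list for the methionine cycle and transsulfuration also held genes that process cobalamin, the cofactor of Mtr. Of its 13 genes 9 were tested, of which 3 fell and 1 rose, with a median log2 fold change of 0.06. Mat2a, which makes S-adenosylmethionine, fell from 258 ± 10.5 CPM (SD, n = 6) to 140.0 ± 7.13 CPM (SD, n = 6), a log2 fold change of -0.88 (edgeR adjusted p = 6.04e-09). Ahcy, which hydrolyzes S-adenosylhomocysteine, fell by 0.71 on the log2 scale (edgeR adjusted p = 4.57e-07). Cbs, the first enzyme of transsulfuration, rose by 0.49 (edgeR adjusted p = 0.00453) at 1.64 CPM in controls and 2.31 CPM under compression. Cth, the second, was at -0.09 (edgeR adjusted p = 0.272), and was called lower without compressed replicate 6 (-0.14, edgeR adjusted p = 0.00394) and with library size alone (-0.15, edgeR adjusted p = 0.0475). Without that replicate the list held 5 lower and 3 higher calls.

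Nucleotide synthesis takes up folate-borne carbons. In purine synthesis outside Gart and Atic, 9 of 11 genes fell and 2 rose, with a median log2 fold change of -0.54, compared with -1.05 and -0.70 for these members. Pfas, Ppat and Prps1, of the early steps, fell, with log2 fold changes of -0.90, -0.83 and -0.70 (edgeR adjusted p = 4.47e-06, 1.07e-08 and 1.30e-07), and Paics had one of -0.37 (edgeR adjusted p = 1.40e-05). Exons of Ppat and Paics overlap on opposite strands. The genes that rose were Adssl1, an adenylosuccinate synthase, at 0.37 (edgeR adjusted p = 3.07e-05), and Impdh1, an inosine monophosphate dehydrogenase, at 0.14 (edgeR adjusted p = 0.0125), a call lost with library size alone (0.08, edgeR adjusted p = 0.157), with no low-count filter and with replicate number as a block. Impdh2 and Adss, which encode enzymes of the same reactions as the genes that rose, fell, at -0.57 and -0.23 (edgeR adjusted p = 4.51e-06 and 2.75e-04).

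In pyrimidine and deoxynucleotide synthesis outside Tyms, 10 of 12 genes fell, with a median log2 fold change of -0.82, and Ctps2 and Rrm2b did not pass the test. Rrm2 and Rrm1, the subunits of ribonucleotide reductase, fell, with log2 fold changes of -1.25 and -0.96 (edgeR adjusted p = 7.49e-10 and 1.45e-08), and Umps, which makes uridine monophosphate, fell by 1.09 on the log2 scale (edgeR adjusted p = 7.32e-10). Tk1, the cytosolic thymidine kinase, fell by 0.86 (edgeR adjusted p = 1.76e-06). It is a salvage enzyme but was counted in this list and not in the salvage list. In the salvage of bases and nucleosides outside Tk1, 4 of 8 genes fell and 2 rose, with a median of -0.07. Dck, deoxycytidine kinase, fell by 0.71 on the log2 scale (edgeR adjusted p = 3.73e-07). The mitochondrial kinases Dguok and Tk2, which phosphorylate deoxynucleosides for mitochondrial DNA, rose by 0.68 and 0.47 (edgeR adjusted p = 2.69e-05 and 6.33e-07), and neither gene's groups overlapped.

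Markers of S phase and proliferation moved with the folate enzymes, and their part in the result was not tested. All 15 fell, with a median log2 fold change of -1.0 and a range from -1.29 to -0.61. Mcm6 and Mcm5, subunits of the replication helicase, and Cdc6, which helps to load it, fell. Their log2 fold changes were -1.29, -1.17 and -1.23 (edgeR adjusted p = 1.17e-09, 7.27e-10 and 1.74e-10). Pcna, the sliding clamp, fell by 0.61 (edgeR adjusted p = 2.66e-05), and Mki67, a proliferation antigen, had a log2 fold change of -1.0 (edgeR adjusted p = 0.00180), or -0.84 without compressed replicate 6. In log2 fold change Shmt1 lay below all 15 markers, and Mthfd2 and Mthfd1l lay above their range. Gart, Tyms, Mthfd1, Shmt2, Atic and Mtr lay within that range, Mtr close to its upper end.

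**Figure D4:**
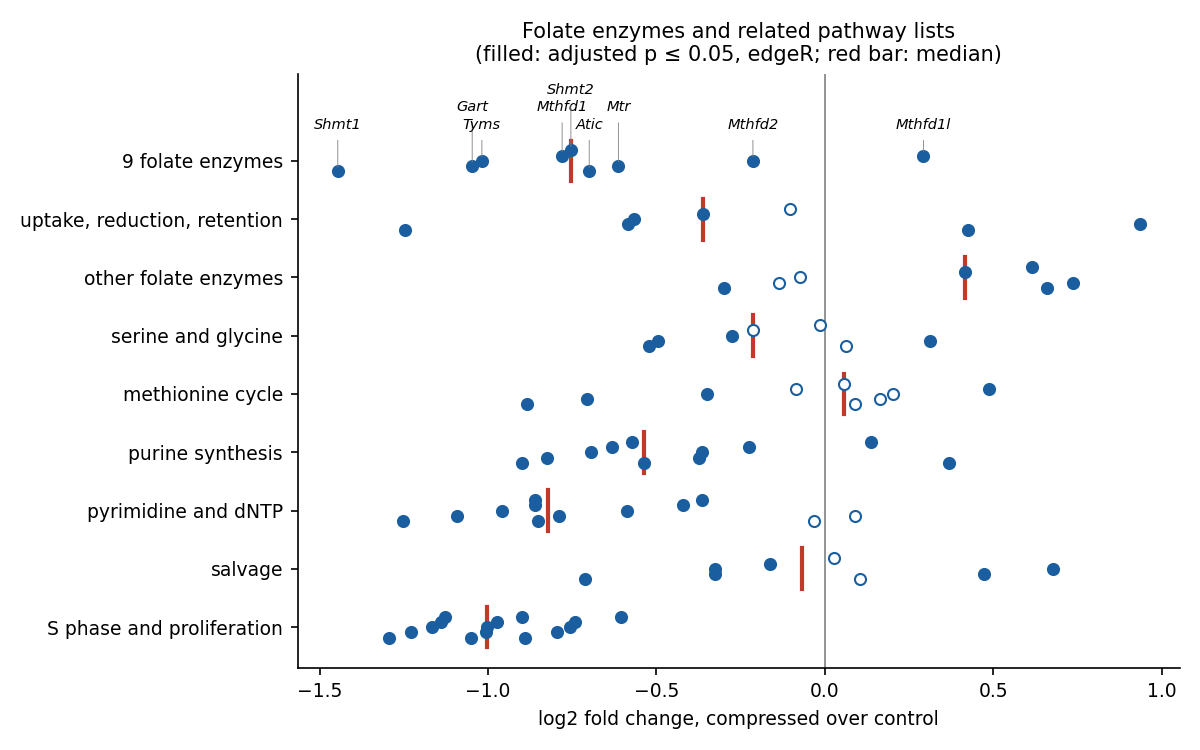
Change under compression (log2 fold) of each tested gene (points; filled where edgeR's adjusted p was 0.05 or less, open otherwise) for the 9 folate enzymes and 8 related lists, and a red bar at each median. Medians run from -1.0 for the S phase markers, through -0.75 for the folate enzymes, to 0.42 for the other folate enzymes.

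Outside these lists, the genes whose log2 CPM was most like that of a member across the 12 libraries are given as a description, since the difference between the groups dominates each correlation and the libraries are shared. Nearest to Shmt1 were Prim1, a DNA primase subunit, Kifc1, a spindle motor, and Lig1, the replicative DNA ligase (Pearson's r 0.998, 0.998 and 0.997). Nearest to Tyms were Ppp1r8, Tacc3 and Rfc5, a subunit of the clamp loader (0.998, 0.997 and 0.997). Nearest to Shmt2 were Pa2g4, Cdc20 and Nle1 (0.999, 0.997 and 0.997), and to Mthfd2 Rrp15, a ribosome assembly factor, Eif5, a translation initiation factor, and Tfam, which packages and transcribes mitochondrial DNA (0.987, 0.986 and 0.985). Log2 fold changes ran from -1.18 for Prim1 to -0.95 for Lig1 among those nearest to Shmt1, and from -0.60 for Rrp15 to -0.29 for Eif5 among those nearest to Mthfd2.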

How the data were processed

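Directional RNA libraries, enriched for mRNA, of 6 control and 6 compressed RAW264.7 samples were sequenced. The authors aligned reads with STAR 2.7.2 to a GENCODE mouse annotation and deposited a table of whole-number counts, not normalized, with 1 row per Ensembl ID. The submitters' processing notes name GRCm39. The counting program, its strand setting and the annotation release are not given in the sources used. Symbols (51948 of 56941 IDs) and exon lengths came from GENCODE M21. Promoter positions are on GRCm38.p6, and counts carry no coordinates.

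Counts were tested in R 4.3.3 with edgeR 4.0.16 (filterByExpr with a minimum count of 10, TMM, quasi-likelihood F test on condition, Benjamini-Hochberg adjustment over all tested genes, threshold 0.05). The study used DESeq2, an alternative here (version 1.42.0). The procedure was tested on simulated data. CPM use TMM-scaled library sizes, and log2 CPM a prior count of 2. The standard error (SE) is the size of the log2 fold change divided by the square root of F. Ratios were compared with SciPy 1.17.1.

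Members, gene lists and tests were chosen with earlier results of these data known. Genes named are all members, in each list the 3 called genes with the largest change, called genes that go against the majority and 16 further names, and the 3 nearest genes to each of 4 members. Some genes under this rule are not reported here. Genes named for an overlap, Ctps2, Rrm2b, Impdh2, Adss, Psph and Mertk were named after their values were seen. Alternatives were DESeq2, RLE factors, library size alone, keeping low-count genes, an adjusted p of 0.01, replicate number as a block, leaving out each library and, chosen after seeing the data, removal of the trend with transcript length. For ratios they were a prior count of 2, paired differences and leaving out each library.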

Additional observations from a re-analysis of the deposited data

Results flagged for a closer look

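Compressed replicate 6 lay far from the other 5 libraries of its group in 4 of 24 groups of values examined, where the gap to the nearest library, divided by the range, was above Dixon's critical value of 0.625 for 6 samples. Chance alone flags about 1 in 20 independent groups. All 4 flags were the same library, and the flagged ratio contains the flagged Mthfd1 value. The groups are therefore not independent, and that rate cannot be applied to them. It was low for Mthfd1, at 71.1 CPM (gap over range 0.682), and for Mtr, at 29.3 CPM (0.735). It was high for Tyms, at 27.7 CPM (0.637), and in the log2 ratio of Mthfd2 over Mthfd1, at 2.05 (0.635). Relative to the mean of the other compressed libraries, its log2 CPM correlated with exon length at a Spearman's rho of -0.55 across 14647 genes, which are not independent replicates. Mtr, at 8524 bases of exon, and Tyms, at 6089 bases, went in opposite directions in it.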

How the results depend on the processing

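All 9 members kept their direction and their call under the 18 alternative fits, with the range of log2 fold changes from -1.51 to -1.42 for Shmt1, -0.67 to -0.49 for Mtr, -0.28 to -0.20 for Mthfd2 and 0.23 to 0.35 for Mthfd1l; the largest adjusted p of Mthfd1l was 0.0204, with library size alone. The 3 ratios kept theirs under leaving out each library, a prior count of 2 and paired differences (replicate block, adjusted p = 0.0313, the smallest that 6 pairs can give). Across all genes, library size alone gave 3079 higher and 4050 lower, compared with 3677 and 3283, and leaving out compressed replicate 6 gave 5117 higher and 4864 lower. The median of all tested genes ranged from -0.04 to 0.02 and that of the members from -0.82 to -0.72.

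Counts in small lists moved by 1 or more genes, and the cause was not tested. At an adjusted p of 0.01, the uptake list held 1 higher, the other folate enzymes 0 lower and 3 higher, and the serine list 0 higher. The purine list then held 1 higher and the salvage list 3 lower. Library size alone gave 2 lower among the other folate enzymes, 0 higher in the serine list and 1 higher in the purine list. It also gave 4 lower in the serine list and 4 lower in the methionine list. DESeq2 gave 0 higher in the serine list. With no low-count filter, and with replicate number as a block, the serine list held 0 higher, the purine list 1 higher and the salvage list 3 lower. With no low-count filter the methionine list held 4 lower. Removal of the length trend gave 3 higher in the methionine list, 1 higher in the pyrimidine list and 3 lower in the salvage list. Leaving out 1 library in turn gave 0 to 1 lower among the other folate enzymes and 3 to 4 lower in the serine list. It gave 3 to 5 lower and 1 to 3 higher in the methionine list. The pyrimidine list then held 0 to 1 higher and the salvage list 3 to 5 lower.

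Replicate numbers gave no sign of pairing: deviations of same-numbered libraries correlated at -0.12 to 0.040 across genes, and 0 of 6 controls correlated best with their own number. Deviations of compressed libraries were taken from a mean that includes the distant replicate 6, so this check could miss a pairing. The block gave 3299 higher and 3094 lower genes and changed no call among the members. Depth did not limit the members, but Folr1, Mthfs, Aldh1l1, Gldc and Cbs rest on few counts.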
